A study of Rattus norvegicus with 8 samples.

Results

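The genes described here carry the insulin signal through phosphoinositide 3-kinase (PI3K) in the rat ovary. They were 9 named genes: the insulin receptor Insr, its adaptors Irs1 and Irs2, the PI3K subunits Pik3r1 and Pik3ca, the protein kinases Akt1, Akt2 and Sgk1, and the transcription factor Foxo3. Members were all non-control probes whose gene name on the array was one of these names, which gave 16 probes of 30367, and 15 of the 16 passed the filter on dim probes. The array was an Agilent rat expression array of 60-base probes with a single dye, read on 8 samples.

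Both groups were immature female rats that received a subcutaneous injection at 26 days of age and whose ovaries were taken 48 h later, at 28 days. The treated group received 50 IU of pregnant mare serum gonadotropin (PMSG), a hormone with follicle-stimulating and some luteinising activity in rats. It was given in albumin phosphate buffer, 0.2 ml per injection, and the control group received the same volume of buffer alone. Each group had 4 arrays, whole ovaries were used, and the strain is not given in the sources used here. The labels do not say whether each array came from a separate animal or from pooled ovaries, so the p-values measure the spread between these samples, which may be technical.

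Insulin binding activates the receptor's tyrosine kinase, which phosphorylates the IRS adaptors, and these recruit PI3K through its regulatory subunit. The lipid made by the catalytic subunit brings Akt to the membrane to be activated, while Sgk1 is activated through the same upstream kinases. Both kinases phosphorylate FOXO factors, which then leave the nucleus. In the ovary, nuclear Foxo3 in oocytes is known to hold primordial follicles dormant, and PI3K signalling to activate them by moving it out of the nucleus. The pathway is also known for the response of granulosa cells to insulin, IGF1 and follicle-stimulating hormone, which induces Sgk1 in cultured granulosa cells.

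Levels below are log2 signals relative to the 75th percentile of the same array, so a level of 0 is that percentile. A difference is the mean of the arrays labelled PMSG minus the mean of those labelled control on the same scale, tested with limma, and a call means a Benjamini-Hochberg adjusted p below 0.05 over 25303 tested probes. The 75th percentile signal ran from 1002 to 1103 in the control arrays and from 769 to 1082 in the PMSG arrays, and PMSG replicate 3 was the lowest. Several genes known to rise after gonadotropin were lower in the arrays labelled PMSG, with differences of -1.93 for the luteinising hormone receptor gene Lhcgr, -2.75 for Star and -3.36 for Cyp11a1, while Amh was higher by 3.03 and Insl3 by 2.60. The groups are therefore named by their labels throughout, and each direction below rests on those labels.

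The tissue label was checked against markers of ovarian and other cells. All 9 granulosa markers passed the filter, with 2 higher, 1 lower and a summed linear level of 138.4 to 225.0 times the 75th percentile in control arrays and 132.3 to 170.7 in PMSG arrays. Among theca and luteal markers 1 of 8 was higher and 5 were lower, and the sum was 273.2 to 309.6 in controls against 134.1 to 216.1. Oocyte markers were higher in 9 of 9, with sums of 3.08 to 5.45 against 10.5 to 22.7, and leukocyte markers in 5 of 7, with sums of 8.30 to 9.93 against 13.7 to 16.0. Endothelial markers were higher in 1 and lower in 4 of 8, with sums of 21.2 to 24.8 against 17.3 to 18.7, and oviduct markers were higher in 4 of 6, with sums of 15.5 to 21.0 against 25.8 to 38.8. Some tested markers were very dim in a group, with mean log2 levels of -8.06 for Ptgfr in PMSG arrays and -7.16 for Dnah5 in control arrays. A tested marker need not have been detected in both groups. The part of these markers in the results below was not tested. In whole ovaries, fewer cells of a type and less RNA per cell cannot be told apart.

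Probe sequences show which stretch of each transcript was read, and those the results turn on are given first, 5′ to 3′. The Akt1 and Akt2 probes read the corresponding stretch of the kinases, and capitals mark the 34 of 46 aligned bases (73.91%) at which they are identical.
Akt1: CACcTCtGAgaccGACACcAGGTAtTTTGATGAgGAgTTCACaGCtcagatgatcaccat
Akt2: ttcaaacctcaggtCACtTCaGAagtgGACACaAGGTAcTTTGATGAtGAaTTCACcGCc
They differ at the other 12 aligned bases. The brighter Insr and Irs1 probes and a pair of Pik3ca probes that moved against the brightest Pik3ca probe are shown in lower case, as no part of them is singled out.
Insr: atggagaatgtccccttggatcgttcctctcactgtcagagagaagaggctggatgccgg
Irs1: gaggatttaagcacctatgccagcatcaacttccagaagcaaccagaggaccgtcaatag
Pik3ca, first: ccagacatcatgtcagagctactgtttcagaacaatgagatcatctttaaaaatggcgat
Pik3ca, second: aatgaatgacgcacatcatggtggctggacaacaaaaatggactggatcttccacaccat
In the coordinates of the files, on build rn4, Insr lies at chr12:3086616-3086675, Irs1 at chr9:81633784-81633843, and the Pik3ca probes at chr2:118661160-118661219 and chr2:118669148-118669207.

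By the brightest tested probe of each gene, 6 of the 9 members differed between the groups (66.7%), against 34.5% of all 21926 genes tested. The members were chosen with earlier results of these data known, so the shares of members given here are not independent of the data. Insr, Irs2 and Pik3ca were higher in the arrays labelled PMSG (18% of all genes were called higher), although other Pik3ca probes were lower. Akt1, Akt2 and Sgk1 were lower (16.5% of all genes). Groups did not overlap for 5 of the 9 members, against 37% of all genes. Irs1, Pik3r1 and Foxo3 did not pass the threshold. The median difference was 0.43 over the members and 0.12 over all genes, and every tested member probe was above background on all 8 arrays.

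**Figure D1:**
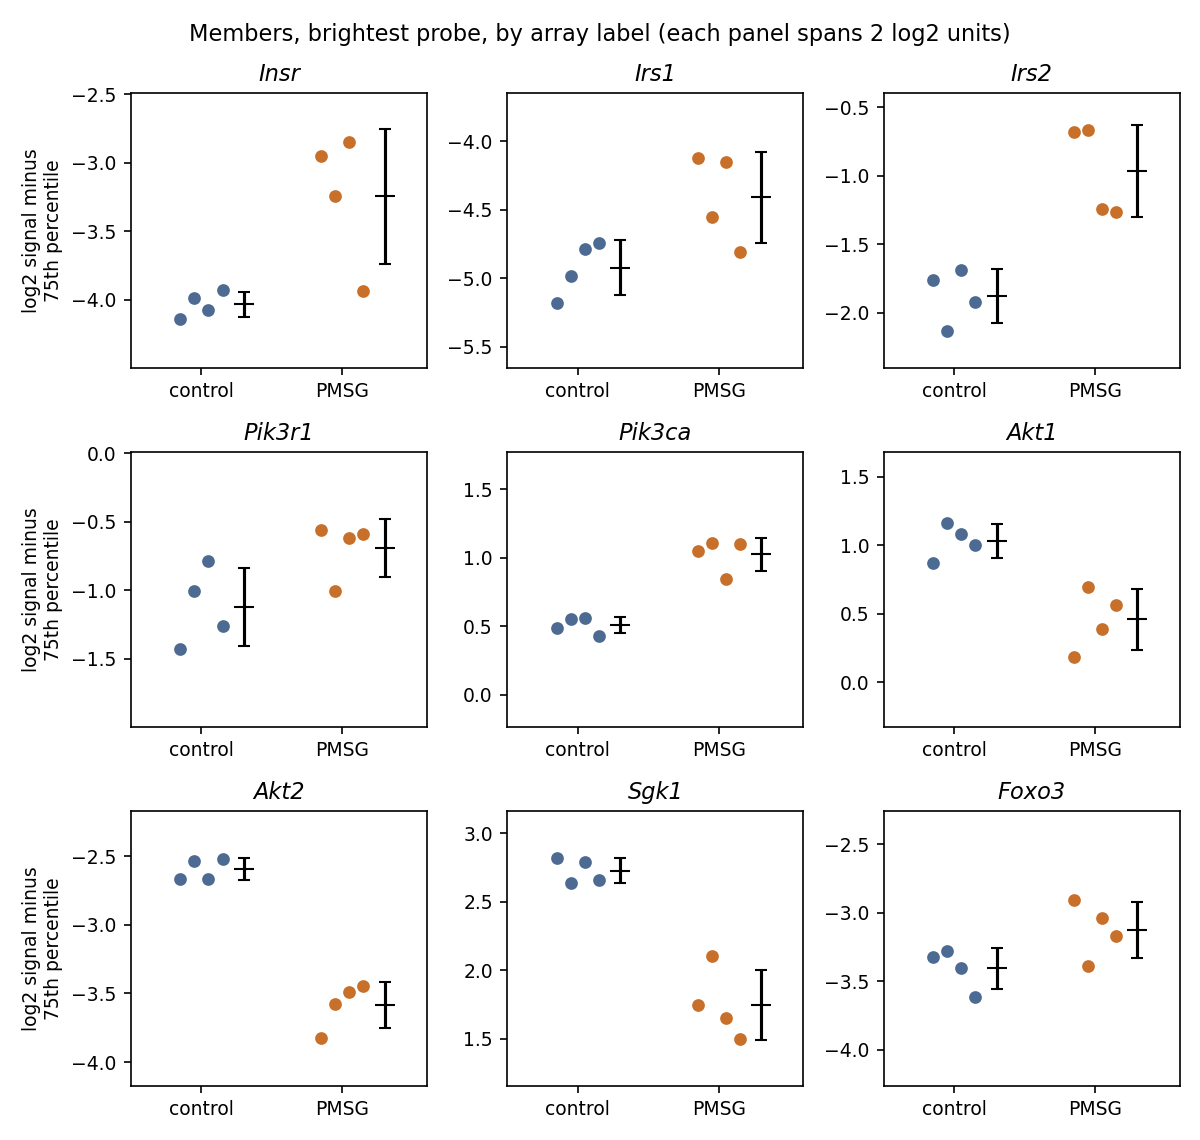
Level of each member's brightest probe on every array (log2 signal relative to the array's 75th percentile; control blue, PMSG orange; points are arrays, bars mean and SD, n = 4). The control and PMSG arrays separated fully for Irs2, Pik3ca, Akt1, Akt2 and Sgk1, while PMSG replicate 4 lay among the controls for Insr and Irs1.

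Insr, the receptor tyrosine kinase for insulin, had levels of -4.14, -3.98, -4.08 and -3.93 in the control arrays and -2.95, -3.24, -2.85 and -3.94 in the PMSG arrays. PMSG replicates 1 to 3 lay above all controls and replicate 4 lay within them. The difference was 0.79 (SE 0.23, n = 4 per group, limma adjusted p = 0.0288), or 1.73-fold. Leaving out any of the 7 arrays other than PMSG replicate 4 ended the call (values from 0.66 to 0.82, limma adjusted p from 0.0564 to 0.0739). Without PMSG replicate 4 the difference was 1.02 (limma adjusted p = 0.00107), and with normexp background correction it was 0.51. A dimmer Insr probe at chr12:3087540-3087599 read -4.66, -4.18, -4.36 and -4.35 in controls and -4.14, -4.37, -4.15 and -4.60 in PMSG arrays, a difference of 0.07 with an interval from -0.27 to 0.41 (limma adjusted p = 0.718). The mean of both probes was not called (0.43, limma adjusted p = 0.0978).

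Igf1r, the related receptor for IGF1, fell. Its levels were -0.36, -0.22, -0.22 and -0.17 in controls and -1.57, -1.50, -1.45 and -1.63 in PMSG arrays, a difference of -1.30 (SE 0.09, n = 4 per group, limma adjusted p = 7.8e-05), or 2.45-fold lower. Within each array, the log2 ratio of Insr to Igf1r rose by 2.08, from -3.79 ± 0.04 to -1.71 ± 0.43 (SD, n = 4), and all PMSG arrays lay above all controls. The exact two-sided permutation p was 0.0286, the smallest that 4 against 4 arrays allow, and 0.0571 after adjustment over the 6 ratios computed.

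Irs1 and Irs2 are the main docking proteins between the insulin receptor and PI3K. Irs2 rose: its levels were -1.76, -2.14, -1.69 and -1.92 in controls and -0.68, -0.66, -1.24 and -1.27 in PMSG arrays. The groups did not overlap, and the difference was 0.91 (SE 0.18, n = 4 per group, limma adjusted p = 0.00622), or 1.88-fold. Its probe lies at chr16:83403814-83403873. The brighter Irs1 probe had levels of -5.18, -4.98, -4.79 and -4.74 in controls and -4.12, -4.55, -4.15 and -4.81 in PMSG arrays. PMSG replicate 4 again lay within the controls, and the difference of 0.51 (SE 0.18, interval 0.09 to 0.94) was not called (limma adjusted p = 0.0612). Without that array it was 0.65 and called (limma adjusted p = 0.0157), while normexp gave 0.28 and quantile normalization 0.27.

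The other Irs1 probe, printed on 10 spots, lies at chr9:81585685-81585744, 48040 bases from the first on the genome. It read -5.79, -5.60, -5.42 and -5.89 in controls and -5.10, -5.42, -5.36 and -5.19 in PMSG arrays. PMSG replicate 2 lay just above control replicate 3, with the groups barely apart, and the difference was 0.41 (SE 0.13, limma adjusted p = 0.0458). Leaving out any of 7 arrays, all but control replicate 3, ended this call (values from 0.34 to 0.46, limma adjusted p from 0.0523 to 0.119), and it was not called with quantile normalization (0.10), normexp (0.22), median centring (0.24) or no filter on dim probes (limma adjusted p from 0.0610 to 0.705). The within-array log2 ratio of Irs2 to Irs1 changed by 0.40 (exact two-sided permutation p = 0.143, adjusted 0.171), with overlapping groups.

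Pik3r1 encodes p85alpha, the regulatory subunit that binds phosphorylated IRS proteins. Its levels were -1.43, -1.003, -0.79 and -1.26 in controls and -0.56, -1.01, -0.62 and -0.59 in PMSG arrays. PMSG replicate 2 lay within the controls, and the difference of 0.43 (SE 0.17, interval 0.04 to 0.82) was not called (limma adjusted p = 0.0847). It was called without PMSG replicate 2 (0.53, limma adjusted p = 0.0490) and without control replicate 3 (0.54, limma adjusted p = 0.0451), and with normexp (0.41, limma adjusted p = 0.0481). Median centring gave 0.26, which was not called.

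Pik3ca encodes p110alpha, the catalytic subunit, and its probes went in opposite directions. The brightest, at chr2:118672155-118672214, read 0.49, 0.55, 0.56 and 0.43 in controls and 1.05, 1.11, 0.85 and 1.101 in PMSG arrays. All PMSG arrays were above all controls, and the difference was 0.52 (SE 0.10, n = 4 per group, limma adjusted p = 0.00419), or 1.43-fold. The second probe printed above read -0.58, -0.48, -0.63 and -0.71 in controls and -0.98, -0.84, -0.95 and -0.78 in PMSG arrays, a difference of -0.29 (SE 0.10, limma adjusted p = 0.0470). The first read -3.30, -3.10, -3.06 and -3.30 against -3.68, -3.40, -3.60 and -3.88, a difference of -0.45 (SE 0.13, limma adjusted p = 0.0267). All PMSG arrays were below all controls on both of these probes, so the direction of Pik3ca depended on the probe. The fall of the second was not called without any of the 7 arrays other than PMSG replicate 4 (values from -0.33 to -0.25, limma adjusted p from 0.0625 to 0.131). That of the first was not called without PMSG replicate 1, control replicate 2 or control replicate 3 (values from -0.44 to -0.40, limma adjusted p from 0.0631 to 0.0747), nor with normexp (-0.21, limma adjusted p = 0.140). The second was also not called with no filter on dim probes or with the slide row as a block (limma adjusted p of 0.0659 and 0.0684).

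The other Pik3ca probes lie closer to the lowest coordinate. The probe at chr2:118641028-118641087 had a difference of -0.20 (SE 0.16, limma adjusted p = 0.343), called only with quantile normalization (-0.42, limma adjusted p = 0.0381), and the probe spanning an intron between 118650104 and 118654600 had 0.09 (SE 0.18, limma adjusted p = 0.700). The probe at chr2:118640649-118640708 was above background on 1 of 8 arrays and was not tested. The brightest probe was the farthest along the gene, 31.5 kb from the start of the lowest probe, and the probes that fell lay at 20.5 and 28.5 kb. Averaged over all tested probes, the Pik3ca difference was -0.07 (limma adjusted p = 0.581). With median centring the brightest probe gave 0.35, which was not called (limma adjusted p = 0.106). The log2 ratio of Pik3r1 to Pik3ca changed by -0.09 by the brightest probes (exact two-sided permutation p = 0.629, adjusted 0.629) and by 0.49 when probes of a gene were averaged (exact permutation p = 0.0571).

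**Figure D2:**
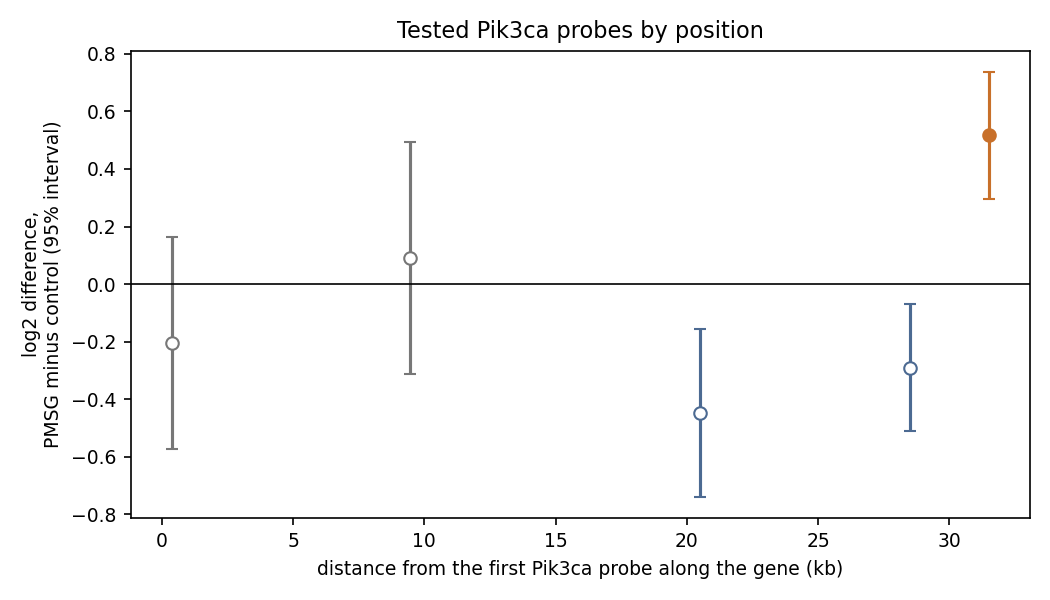
Log2 difference (PMSG minus control, with 95% interval, 4 arrays per group) of each tested Pik3ca probe against its distance in kb from the start of the lowest probe on the genome. The probe at 31.5 kb was higher at 0.52, those at 20.5 and 28.5 kb were lower at -0.45 and -0.29, and the grey points were not called; the filled point is the brightest probe.

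Akt1 and Akt2 both fell. Akt1, the kinase best known for growth and survival, had levels of 0.87, 1.17, 1.08 and 1.00 in controls and 0.19, 0.70, 0.39 and 0.56 in PMSG arrays. The groups did not overlap, and the difference was -0.57 (SE 0.13, n = 4 per group, limma adjusted p = 0.0118), or 1.49-fold lower. The probe lies at chr6:137641146-137641205 and its 10 spots differed within an array by an SD of 0.02 to 0.07.

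Akt2, the form best known for insulin-stimulated glucose uptake, read -2.66, -2.53, -2.66 and -2.52 in controls and -3.83, -3.57, -3.49 and -3.45 in PMSG arrays. The lowest controls, at -2.66, lay above the highest PMSG array, at -3.45. The difference was -0.99 (SE 0.11, n = 4 per group, limma adjusted p = 4.62e-04), or 1.99-fold lower, from a probe at chr1:82725226-82725285. The fall was smaller with normexp background correction, at -0.61, and remained called. Within arrays, the log2 ratio of Akt2 to Akt1 changed by -0.42, from -3.63 ± 0.11 to -4.04 ± 0.16 (SD, n = 4), without overlap (exact two-sided permutation p = 0.0286, adjusted 0.0571). With normexp this ratio changed by -0.08 (exact permutation p = 0.571), so whether the fall of Akt2 was larger than that of Akt1 depended on the background correction.

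Sgk1, a kinase close to Akt that is controlled largely by its transcript level and is known for stimulating sodium channels in the kidney, fell. Its levels were 2.82, 2.64, 2.79 and 2.66 in controls and 1.74, 2.10, 1.65 and 1.496 in PMSG arrays. PMSG replicate 2 was the highest of the PMSG arrays and still below all controls. The difference was -0.98 (SE 0.14, n = 4 per group, limma adjusted p = 0.00126), or 1.97-fold lower. The log2 ratio of Sgk1 to Akt1 changed by -0.41 (exact two-sided permutation p = 0.0571, adjusted 0.0857), and the groups overlapped.

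The Sgk1 probe, at chr1:23501718-23501777, is listed for 3 transcript variants and so cannot tell their starts apart. RefSeq on build GRCr8 gives Sgk1 3 promoter windows of 300 bases, each reaching from upstream of a transcript start to 50 bases past it. The GC box GGGCGG, searched on both strands, occurs 4 times in the window at chr1:24804782-24805081, 2 times at chr1:24805521-24805820 and 0 times at chr1:24807182-24807481. Any match is held by 33.06% of all 33469 windows of this length, a share that gives no background for 4 matches. Among the other members with windows, Pik3r1 held 7 matches, Irs1 held 3, and Akt1, Akt2, Pik3ca and Insr held 0. The Sgk1 window with the most matches is printed, minus strand, with the GC boxes in capitals. It was picked because GC boxes are known from Sgk1's response to follicle-stimulating hormone in cultured granulosa cells.
Sgk1: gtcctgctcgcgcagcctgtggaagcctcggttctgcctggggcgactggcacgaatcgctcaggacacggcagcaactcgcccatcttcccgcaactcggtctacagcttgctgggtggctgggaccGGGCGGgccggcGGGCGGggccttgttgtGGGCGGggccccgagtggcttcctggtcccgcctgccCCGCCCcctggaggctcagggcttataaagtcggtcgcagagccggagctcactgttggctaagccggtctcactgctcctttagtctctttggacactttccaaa
These matches describe the letters only, and no binding was measured.

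Foxo3 is a FOXO factor that Akt and Sgk1 phosphorylate. Its levels were -3.32, -3.28, -3.41 and -3.62 in controls and -2.90, -3.39, -3.04 and -3.17 in PMSG arrays, from a probe at chr20:46171789-46171848. PMSG replicate 2 lay within the controls, and the difference of 0.28 (SE 0.13, interval -0.03 to 0.59) was not called (limma adjusted p = 0.139). It was 0.11 with median centring and 0.10 with quantile normalization. The array measures the transcript, not the phosphorylation by which Akt and Sgk1 act on it. The within-array log2 ratio of Sgk1 to Foxo3 changed by -1.26, from 6.13 ± 0.16 to 4.87 ± 0.41 (SD, n = 4), without overlap (exact two-sided permutation p = 0.0286, adjusted 0.0571). None of the 6 ratios passed 0.05 after adjustment.

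**Figure D3:**
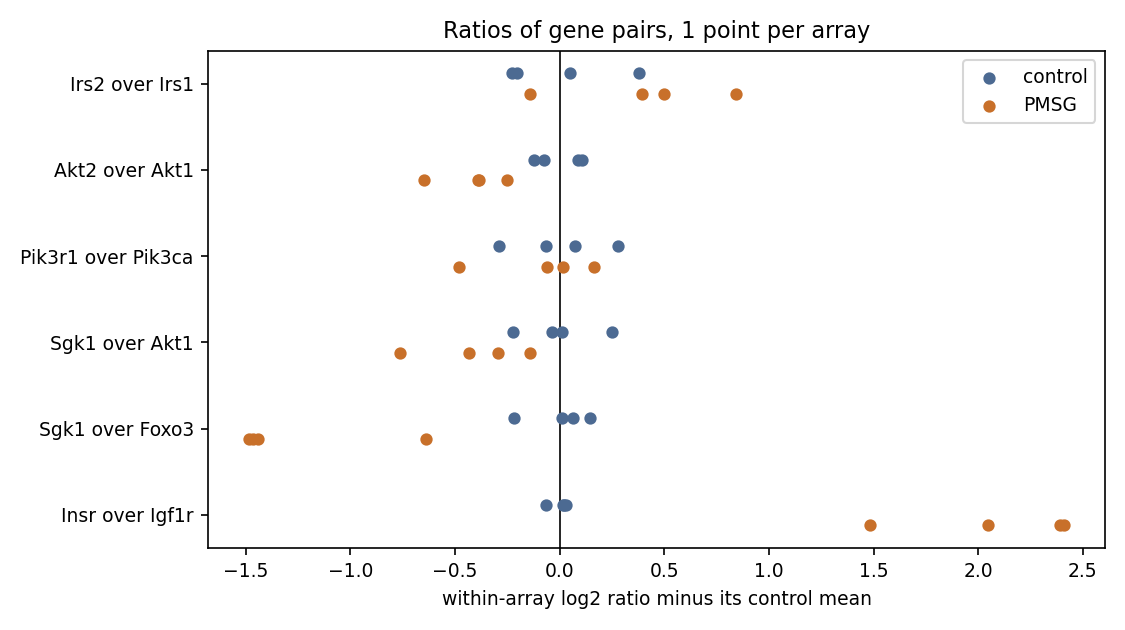
Within-array log2 ratio of 6 pairs of genes minus its control mean, 1 point per array (control blue, PMSG orange, n = 4 per group). The groups separated for Akt2 over Akt1, Sgk1 over Foxo3 and Insr over Igf1r, whose mean changes were -0.42, -1.26 and 2.08.

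FOXO factors are known to bind the letters TGTTTAC, which 3.78% of all windows hold on either strand, and FOXO proteins are known to raise Insr transcription in other tissues. Among the 7 members with RefSeq windows, Insr and Pik3ca hold 1 match each. The Insr window, chr12:6128754-6129053 on the minus strand of GRCr8, is printed with that match and the cAMP-response core TGACG, held by 21.2% of windows, in capitals.
Insr: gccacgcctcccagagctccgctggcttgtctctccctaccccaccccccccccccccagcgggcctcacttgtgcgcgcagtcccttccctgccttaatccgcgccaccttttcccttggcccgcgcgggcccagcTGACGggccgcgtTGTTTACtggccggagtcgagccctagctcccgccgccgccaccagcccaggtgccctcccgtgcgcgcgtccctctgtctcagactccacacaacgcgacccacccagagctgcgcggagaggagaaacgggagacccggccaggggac
As above, the matches are a description and not a site.

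**Figure D4:**
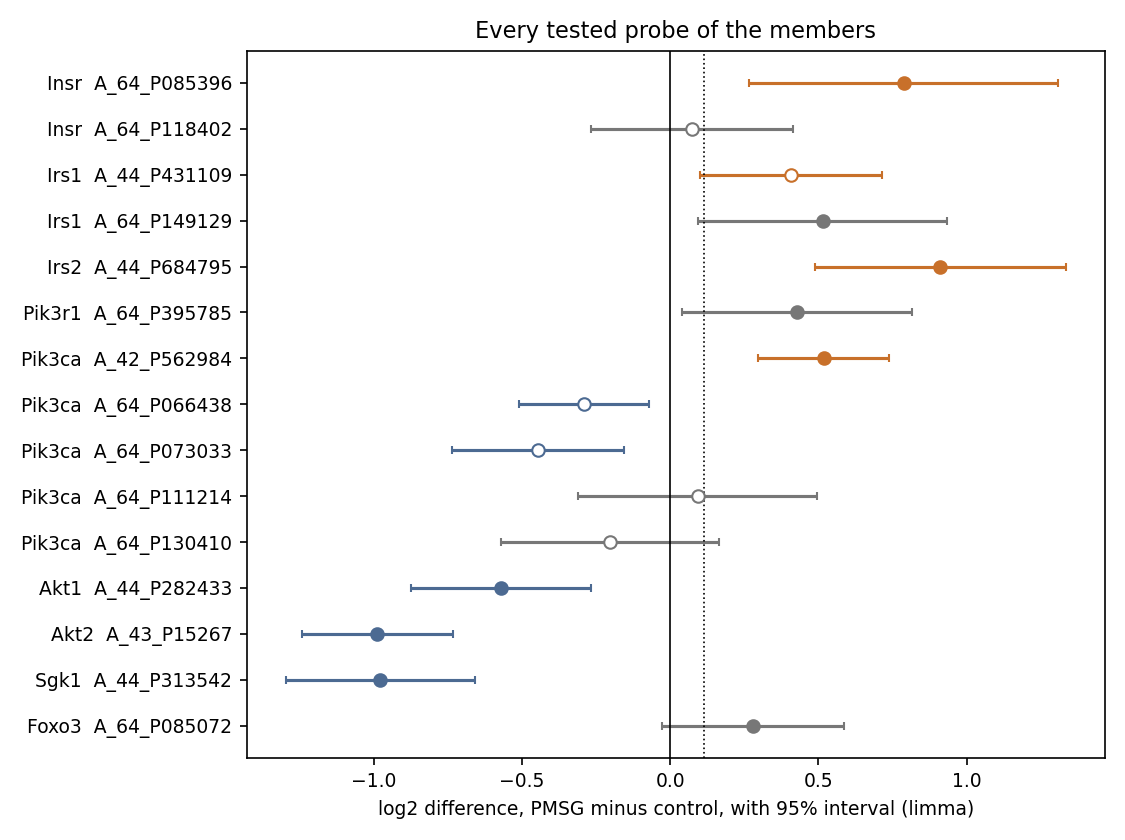
Log2 difference (PMSG minus control, with 95% interval, n = 4 per group) of every tested member probe; filled points are the brightest probe of a gene and open points the others, orange called higher, blue called lower and grey not called. The dotted line is the median of all tested probes, 0.11.

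The genes whose levels across the 8 arrays ran most like the largest rise and the largest fall were found by the root mean square distance between profiles, each centred on its control mean. For Irs2 they were Bnc1 (distance 0.10, difference 0.96), Fgd2 (0.11, 0.91) and Kit (0.12, 0.89), all on the log2 scale. For Akt2 they were Tpm3 (distance 0.053, difference -0.98), Eif4a1 (0.067, -0.99) and Tacc1 (0.068, -0.99).

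The rest of the pathway was read from 134 other genes in 7 lists, of which 122 were tested. Of these 29 were higher and 25 were lower (44.3%, against 34.5% of all genes tested), and the median difference was 0.07. The lists were also chosen with earlier results known, so this share is not independent of the data. With median centring the split was 16 higher and 32 lower, so the balance of directions depended on the scaling. The median difference of all tested probes was 0.11, and it moved to -0.05 with median centring and 0.03 with quantile normalization. Below, up to 3 genes of each list with the largest called changes are named, and any others named were chosen after their values were seen.

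**Figure D5:**
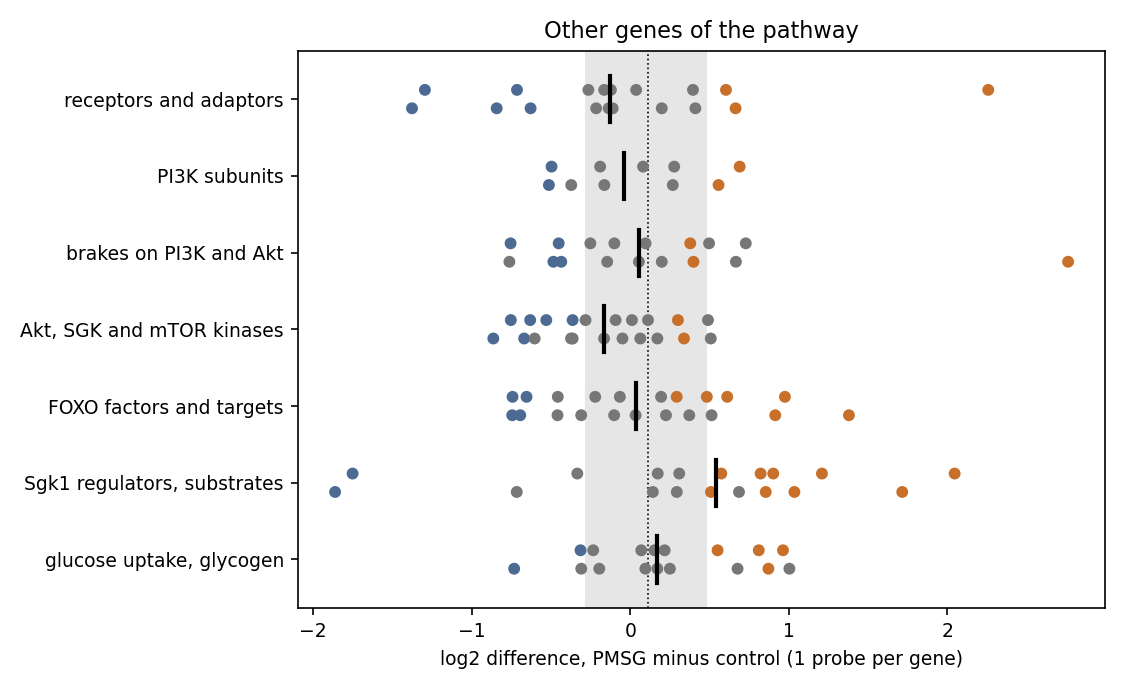
Log2 difference (PMSG minus control) of each tested gene in the 7 pathway lists, 1 point per gene by its brightest probe; orange is called higher, blue called lower and grey not called. Black bars are list medians, and the dotted line and grey band the median and middle quartiles of all tested probes. The band runs from -0.28 to 0.48. The widest changes were those of Pik3ip1 at 2.76, Grb7 at 2.26 and Nr3c2 at 2.05 above 0, and of Dusp1 at -1.86 and Fkbp5 at -1.75 below it.

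Among receptors and adaptors, 3 of 18 tested genes were higher and 5 were lower (median -0.13; 1 and 5 with median centring). Grb7, an adaptor that binds activated receptor tyrosine kinases, had levels from -2.34 to -1.49 in controls and from 0.06 to 0.54 in PMSG arrays, a difference of 2.26 (SE 0.19, limma adjusted p = 1.67e-04). Grb2, the adaptor that links receptors to Ras, fell by its brightest probe (-0.71, limma adjusted p = 0.00148), and its other probe was not called (-0.29, limma adjusted p = 0.126). Enpp1, an inhibitor of the insulin receptor, read 1.85, 1.601, 1.75 and 0.52 in controls and -0.58, -0.49, 0.46 and 0.83 in PMSG arrays. Control replicate 4 lay below PMSG replicate 4, and the difference was -1.38 (SE 0.41, limma adjusted p = 0.0312). It was not called without PMSG replicate 1 or 2 or control replicate 1, 2 or 3 (values from -1.32 to -1.17, limma adjusted p from 0.0760 to 0.0791).

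Of 10 other PI3K genes tested, 2 were higher and 2 were lower (median -0.04; 0 and 2 with median centring, 2 and 0 with normexp). Pik3r2, the regulatory subunit p85beta, rose in every PMSG array relative to every control, from 0.60 to 0.74 up to 1.12 to 1.40, a difference of 0.56 (SE 0.10, limma adjusted p = 0.00336), and its call was lost with median centring (0.39, limma adjusted p = 0.0884). Pik3cd, the catalytic subunit typical of leukocytes, differed by -0.51 (SE 0.17, limma adjusted p = 0.0479) with overlapping groups. It was not called without any of the 7 arrays other than PMSG replicate 2 (values from -0.57 to -0.42, limma adjusted p from 0.0614 to 0.120), with normexp (-0.31, limma adjusted p = 0.0869) or with no filter on dim probes (limma adjusted p = 0.0623). Pik3ap1, a PI3K adaptor of B cells and macrophages, differed by 0.69 (SE 0.19, limma adjusted p = 0.0257), and was not called without control replicate 2, 3 or 4 (values from 0.64 to 0.68, limma adjusted p from 0.0578 to 0.0700), with median centring (0.52) or with quantile normalization (0.42). The summed leukocyte markers were higher in every PMSG array, as given above. Pik3cb, the ubiquitous p110beta, fell by 0.50 on the log2 scale (limma adjusted p = 0.0265).

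Of 17 brakes on PI3K and Akt, 3 were higher and 4 were lower (median 0.05; 1 and 5 with median centring). Pik3ip1, a membrane protein that binds and inhibits p110, had the largest difference of the 122 genes: its levels were -0.12, -0.22, -0.06 and -0.74 in controls and 2.77, 2.58, 2.17 and 2.40 in PMSG arrays. The groups lay far apart, with a difference of 2.76 (SE 0.19, n = 4 per group, limma adjusted p = 7.1e-05), or 6.78-fold. Of the 4 falls, 3 were in a phosphatase that dephosphorylates Akt: its subunits Ppp2r5c (-0.75, SE 0.11, limma adjusted p = 0.00134) and Ppp2ca (-0.48, SE 0.11, limma adjusted p = 0.0107) were lower, as was Ppp2r2a (-0.45).

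Among 21 other kinases and mTOR genes, 2 were higher and 6 were lower (median -0.17; 0 and 8 with median centring). Rheb, the small GTPase that activates mTOR complex 1, had levels of 2.56, 2.48, 2.41 and 2.67 in controls and 1.62, 1.73, 1.83 and 1.95 in PMSG arrays, a difference of -0.75 (SE 0.11, limma adjusted p = 0.00132). Mtor itself differed by -0.67 (SE 0.11, limma adjusted p = 0.00205) and Deptor, an inhibitor of mTOR, by -0.86 (SE 0.12, limma adjusted p = 0.00108), both without overlap. The higher genes were Rps6 (0.34) and Rps6kb2 (0.30).

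Of 21 FOXO factors and targets, 6 were higher and 4 were lower (median 0.03; 4 and 5 with median centring). Txnip, which restrains glucose uptake, read 1.32, 0.84, 1.16 and 0.51 in controls and 2.80, 2.41, 1.92 and 2.22 in PMSG arrays, a difference of 1.38 (SE 0.23, limma adjusted p = 0.00273). Fbxo32, a ubiquitin ligase induced by FOXO in muscle, differed by 0.98 (SE 0.26, limma adjusted p = 0.0203) and was not called without PMSG replicate 1 or control replicate 4 (both 0.86, limma adjusted p from 0.0544 to 0.0575), and normexp gave 0.52. G6pc, the last enzyme of glucose output, differed by 0.91 (SE 0.26, limma adjusted p = 0.0288) with overlap, and was not called without any of the 7 arrays other than PMSG replicate 4 (values from 0.73 to 0.97, limma adjusted p from 0.0504 to 0.0757) or with normexp (0.42, limma adjusted p = 0.0618). The genes that were lower by their brightest probe were the cell-cycle inhibitor Cdkn1b (-0.74), Gadd45a (-0.74), and the antioxidant enzymes Sod2 (-0.65) and Cat (-0.69). Cdkn1a was not called by its brightest probe (-0.10, limma adjusted p = 0.634). Its other probe was lower (-1.74, limma adjusted p = 4.34e-04). Foxo4 was higher (0.61, limma adjusted p = 0.00528).

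The list drawn up for regulators and substrates of Sgk1 had 9 of 18 tested genes higher and 2 lower, while Sgk1 itself was lower. Of all genes tested, 18% were called higher and 16.5% lower. The list median was 0.54, and with median centring 7 genes were higher and 3 were lower. The 2 lower genes were Fkbp5 and Dusp1. Besides the receptors and Tsc22d3 given below, the higher genes were Scnn1g (1.72), Ndrg2 (1.21), Wnk4 (1.04), Scnn1b (0.85), Slc12a3 (0.57) and Ndrg3 (0.51). Other probes of Slc12a3 and Ndrg3 were not called. Nedd4l was not called by its brightest probe (0.17), and its other probe was higher (1.21, limma adjusted p = 0.0274). A place in this list, such as that of Fkbp5, Dusp1 or Tsc22d3, does not show that a gene acts on Sgk1 or is its substrate. Nr3c2, the mineralocorticoid receptor, which induces Sgk1 in kidney, read -3.63, -3.68, -3.52 and -3.93 in controls and -1.49, -1.46, -1.99 and -1.63 in PMSG arrays, a difference of 2.05 (SE 0.15, limma adjusted p = 8.9e-05). Another Nr3c2 probe gave 0.59 and was not called (limma adjusted p = 0.394), and the mean of both gave 1.32. The glucocorticoid receptor gene Nr3c1 was higher by its brightest probe (0.82) but not by its other probe (-0.03, limma adjusted p = 0.903). Fkbp5, a co-chaperone of the glucocorticoid receptor, read 3.42, 3.24, 3.35 and 3.44 in controls and 1.73, 1.65, 1.56 and 1.49 in PMSG arrays, a difference of -1.75 (SE 0.10, limma adjusted p = 3.3e-05). Dusp1 also fell (-1.86, SE 0.21, limma adjusted p = 4.40e-04; -1.04 with normexp), whereas Tsc22d3 rose (0.90, limma adjusted p = 0.00189).

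Of 17 genes of glucose uptake and storage, 4 were higher and 2 were lower (median 0.17; 3 and 4 with median centring). Slc2a4, the insulin-responsive glucose transporter, had levels of -1.22, -0.99, -0.35 and -1.12 in controls and -0.07, -0.22, 0.19 and 0.28 in PMSG arrays. Control replicate 3 came closest to the PMSG arrays, and the difference was 0.96 (SE 0.21, n = 4 per group, limma adjusted p = 0.00879). Slc2a4 is also a fat-cell gene, and the summed level of 8 adipocyte markers was 47.5 in control replicate 3, 5.87 to 19.5 in the other controls and 17.7 to 51.7 in PMSG arrays. None of the 8 markers was called, though their median difference was 0.76. Without control replicate 3, the control with the highest adipocyte sum, the Slc2a4 difference was 1.15 (limma adjusted p = 0.00232). The part of fat cells in the Slc2a4 difference was not tested. Pfkfb2, which sets the activator of glycolysis, differed by 0.81 (SE 0.18, limma adjusted p = 0.00885), but its other probe gave -0.40 and was not called (limma adjusted p = 0.297), nor was the mean of both (0.20, limma adjusted p = 0.455). The first was not called with median centring (0.64) or quantile normalization (0.51), and normexp gave 0.36. Hk1, the ubiquitous hexokinase, was lower (-0.73, limma adjusted p = 0.00130), and the transporter Slc2a1 was not called (-0.20, limma adjusted p = 0.153).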

How the data were processed

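Cy3-labelled RNA of 8 ovary samples was hybridised to an Agilent rat array. Signal intensity per spot was background-subtracted by the authors' Feature Extraction 11.5.1.1, per the file headers, with probes placed on build rn4. Control and outlier spots were left out, spots of a probe averaged as log2, and each array's 75th percentile subtracted (30350 probes). Probes were tested where at least 0.5 of their spots were well above background on at least 4 arrays (25303 probes), with limma 3.58.1 in R 4.3.3 and Benjamini-Hochberg adjustment at 0.05. A gene is its brightest tested probe. The number of arrays limits the precision. All arrays shared 1 slide and 1 scan date.

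A second, deposited set of log2 values came from the same arrays; its column medians were -3.11, -3.19, -3.08 and -3.21 for control and -2.87, -3.05, -2.82 and -3.20 for PMSG. Set against the scanner values, its columns had a correlation of at least 0.998 and slopes of 1.00, so it is on the same scale and not centred by probe; it served as an alternative.

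Replicate numbers were not used as pairs. After the mean of each group was subtracted from every probe, the deviations of same-numbered arrays correlated at only 0.0444, 0.0361, 0.183 and -0.0192. Within-array ratios were tested by exact permutation over the 70 splits. The members and gene lists were chosen with earlier results of these data known. In each list the genes named are the 3 called genes with the largest change, and every member is named with every probe; a few listed genes are not reported here by name. Alternatives were normexp (offset 50), quantile normalization, median centring, other filters, array weights, averaging of probes, the deposited table, the replicate block, and leaving out each array. Foxo1, Pik3cg, Sgk3 and Tbc1d4 were not analysed here. RefSeq promoter windows (GRCr8) matched 7 of the 9 members.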

Additional observations from a re-analysis of the deposited data

Results flagged for a closer look

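Within each group of 4 arrays, a level or ratio stood out where the gap between the extreme array and its neighbour, divided by the range of the group, passed the 95% critical value of Dixon's test. Of 86 groups examined, 5 passed, against 4.3 expected if chance passes about 1 in 20. Pik3r1 in the PMSG arrays had a share of 0.868, with PMSG replicate 2 at -1.01 and the others from -0.62 to -0.56. The Pik3ca probe at chr2:118641028-118641087 had 0.881 in the PMSG arrays, with PMSG replicate 4 at -4.74 and the others from -4.19 to -4.11. Dusp1 had 0.836 in the controls, with control replicate 2 at -2.94 and the others from -2.50 to -2.42. The log2 ratio of Sgk1 to Foxo3 had 0.950 in the PMSG arrays, with PMSG replicate 2 at 5.49 and the others from 4.65 to 4.69. The log2 ratio of Insr to Igf1r had 0.833 in the controls, with control replicate 3 at -3.86 and the others from -3.78 to -3.76. The reason for these gaps was not tested.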

How the results depend on the processing

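Over the alternatives, between 5 and 7 members, 38 and 66 of the other pathway genes, and 6552 and 11382 probes were called, against 6, 54 and 8658 as reported. Akt1, Akt2, Sgk1 and Irs2 kept their direction and call in all 18 alternatives run for each, with largest limma adjusted p of 0.0389, 0.00555, 0.0101 and 0.0258. Foxo3 was called in none of its 18 (limma adjusted p from 0.0658 to 0.561). Pik3ca reversed to -0.066 (limma adjusted p = 0.581) when its probes were averaged, which brings in the probes that fell. Insr lost its call in 9 of 18, with limma adjusted p from 0.00107 to 0.0978. Irs1 gained a call in 3 of 18, with array weights (0.62), averaged probes (0.46) and without PMSG replicate 4; the cause was not tested. Among all probes, 51.4% of calls were higher, against 34.5% with median centring. Leaving out 1 array gave ratio changes of 1.97 to 2.28 for Insr over Igf1r, -1.46 to -1.18 for Sgk1 over Foxo3, -0.47 to -0.34 for Akt2 over Akt1, -0.50 to -0.29 for Sgk1 over Akt1, 0.25 to 0.58 for Irs2 over Irs1 and -0.19 to 0.04 for Pik3r1 over Pik3ca. With the replicate number as a block, 5 members, 39 pathway genes and 7346 probes were called and Insr was not (limma adjusted p = 0.0603). Nor were Enpp1 (0.0818), Pik3ap1 (0.0534), Pik3cd (0.0892), the second Irs1 probe (0.109) and the second Pik3ca probe (0.104), all limma adjusted p under the block. Only number 3 of the 4 correlated best with its own number, and the ratios could not go below an exact p of 0.125 under this block. Normexp shrank the differences of several dim probes, G6pc to 0.42, Fbxo32 to 0.52, Dusp1 to -1.04, Akt2 to -0.61 and Insr to 0.51, so their size is less certain; the cause was not tested.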
